A study of Mus musculus with 12 samples.

Results

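The genes described here were 10 noncoding genes that carry small nucleolar RNAs (snoRNAs) in their introns: Snhg1, Snhg3, Snhg4, Snhg5, Snhg6, Snhg8, Snhg12, Snhg15, Gas5 and Epb41l4aos. They were a named list, and were selected on the read count, since a listed gene was kept if its reads over the 12 mice came to 30 or more. All 10 were kept, with between 7557 reads (Snhg15) and 165180 reads (Gas5). They were 10 of 15138 genes with that many reads and of 56691 genes in the count table. No member lay near the limit of 30 reads. Of other noncoding genes, put down as snoRNA hosts by name only, Meg3 had 26 reads, Rian 16 and Snhg14 63. RNA came from spleens of Tg4 Nr4a3-Tocky IL-10 GFP mice, whose transgenic T cell receptor recognises myelin basic protein (MBP) peptide, with 3 mice in each of the isotype, anti-Lag3, anti-PD-L1 and combination (CB) groups. All mice were given 4 mg/kg of [4Y]-MBP peptide, then 24 h later 0.5 mg of isotype control, anti-Lag3 or anti-PD-L1, or in the CB group both blocking antibodies, and 30 min after that 0.4 mg/kg of peptide. Spleens were taken 12 h after the last peptide dose, and CD4+ T cells positive for the Red and Blue forms of the Nr4a3 Timer reporter, called responder cells, were sorted. The study used young mice of both sexes, and the labels give no age or sex for single animals. The model has a single T cell receptor and a strong peptide dose in every group, controls included, so the isotype group was antigen-challenged, not resting.

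A snoRNA host gene makes a spliced RNA whose introns are trimmed into snoRNAs, which guide chemical modification of ribosomal RNA or take part in its cleavage. Box C/D snoRNAs direct ribose methylation and box H/ACA snoRNAs direct pseudouridylation, each in a particle with a fixed set of proteins. The exons of many noncoding hosts have no known protein product, start with an oligopyrimidine tract as ribosomal protein mRNAs do, and are degraded by nonsense-mediated decay, so that the level of the spliced RNA depends on transcription and on decay. Gas5, named for its accumulation in growth-arrested cells, is the most studied of them, and its spliced RNA can also bind the glucocorticoid receptor.

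In the GENCODE M21 annotation (GRCm38) the 10 hosts held 31 snoRNA loci, all within introns: 9 in Gas5, 8 in Snhg1, 4 in Snhg12, 2 each in Snhg3, Snhg4 and Snhg5, and 1 each in the other four hosts. GENCODE types all of these as snoRNA genes, although 1 of the Gas5 loci, Mir5117, and 1 of the Snhg4 loci, Mir1949, have microRNA names. Snord47, from a Gas5 intron at chr1:161038082-161038158 on the plus strand, and Snord99, from a Snhg12 intron at chr4:132310691-132310764 on the plus strand, are box C/D RNAs and are shown as examples of what these hosts carry, with the TGATGA of box C and the last CTGA, box D, in capitals. Snora73b and Snora73a, the box H/ACA RNAs of Snhg3 at chr4:132352322-132352526 and chr4:132352775-132352979 on the minus strand, are shown because only the first of them was read in these libraries. In that pair the capitals mark the 7 of 205 positions at which they differ (96.6% identity), given in the GENCODE transcript sequences as A3G, A54G, G111A, C164T, A203G, A204T and A205T, counted from the 5′ end, with the base of Snora73b first.
Snord47: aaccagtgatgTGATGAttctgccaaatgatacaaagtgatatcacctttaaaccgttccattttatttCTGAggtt
Snord99: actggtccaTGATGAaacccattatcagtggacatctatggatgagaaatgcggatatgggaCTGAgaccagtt
Snora73b: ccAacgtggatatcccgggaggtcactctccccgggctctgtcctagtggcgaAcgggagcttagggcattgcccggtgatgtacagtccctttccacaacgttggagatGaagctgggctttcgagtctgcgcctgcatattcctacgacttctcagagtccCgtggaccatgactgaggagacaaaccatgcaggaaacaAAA
Snora73a: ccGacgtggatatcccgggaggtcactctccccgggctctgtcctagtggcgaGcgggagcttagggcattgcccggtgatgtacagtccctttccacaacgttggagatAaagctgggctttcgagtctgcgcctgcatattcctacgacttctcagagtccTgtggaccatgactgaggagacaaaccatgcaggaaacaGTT

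The start regions of the hosts are shown as a description of these genes, and any part of theirs in the differences below was not tested. RefSeq (GRCm38.p6) gave 8 starts for 7 of the 10 hosts, and each line below runs from 20 bases before to 40 bases from the start. Capitals mark an oligopyrimidine (TOP) start, searched as a C followed by at least 4 pyrimidines with that C within 10 bases of the annotated start, and in Snhg15 the CACGTG sequence, an E-box. The windows were chr19:8723467-8723526 (plus) for Snhg1, chr4:132353647-132353706 (minus) for Snhg3, chr9:88522858-88522917 (minus) for Snhg5, chr3:123508297-123508356 (minus) for Snhg8, chr4:132308658-132308717 (plus) for Snhg12, chr11:6528721-6528780 (minus) for Snhg15, and chr1:161034581-161034640 and chr1:161035146-161035205 (plus) for Gas5.
Snhg1: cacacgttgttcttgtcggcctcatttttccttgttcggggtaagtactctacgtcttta
Snhg3: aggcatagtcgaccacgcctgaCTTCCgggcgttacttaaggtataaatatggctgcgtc
Snhg5: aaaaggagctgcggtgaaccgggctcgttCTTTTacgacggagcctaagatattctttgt
Snhg8: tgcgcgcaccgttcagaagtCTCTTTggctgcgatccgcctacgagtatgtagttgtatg
Snhg12: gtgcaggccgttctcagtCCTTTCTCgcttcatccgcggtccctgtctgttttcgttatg
Snhg15: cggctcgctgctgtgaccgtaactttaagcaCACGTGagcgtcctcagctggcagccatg
Gas5, upstream start: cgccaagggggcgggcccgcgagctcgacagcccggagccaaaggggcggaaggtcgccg
Gas5, downstream start: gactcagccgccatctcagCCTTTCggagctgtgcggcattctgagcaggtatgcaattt

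A TOP start by these letters was present at 5 of the 8 host starts (Snhg3, Snhg5, Snhg8, Snhg12 and the downstream Gas5 start), against 29.7% of the 32851 starts in the table. CACGTG was present, on either strand, from 250 bases before to 50 after 1 of the 8 host starts, that of Snhg15, against 7.15% of all, and CTTTT in 6 of 8, against 53.6%. CTTTT can lie inside a TOP match, as it does in Snhg5. The promoter table has no entry for Snhg4, Snhg6 and Epb41l4aos.

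Reads on genes ranged from 16449370 to 22151025 per sample, and the spike-in RNAs took 0.725% to 1.31% of that number. The 10 hosts together took 0.124% to 0.144% of the reads in isotype mice, 0.148% to 0.158% with anti-Lag3, 0.143% to 0.154% with anti-PD-L1 and 0.171% to 0.195% with CB. All 6 CD4 T cell markers were present, at a summed 1519 to 1902 CPM (reads of a gene divided by the TMM-scaled library size in megareads). That sum was 1771 to 1902 CPM in isotype mice and 1519 to 1607 CPM in CB mice, with 2 of the 6 genes called lower in CB. Of the other cell types' markers, erythroid genes summed to 158 to 307 CPM in isotype mice and 113 to 145 CPM in CB mice, with 1 of 4 called lower. The 2 CD8 T cell genes summed to 40.9 to 45.3 and 25.05 to 33.2 CPM in those groups. Nearly all of this was Cd8b1, with means of 42.0 and 29.7 CPM. Cd8a had means of 0.77 and 0.40 CPM, near the floor, and neither gene was called. B cell, myeloid, NK cell and platelet markers summed to at most 34.7, 15.6, 8.67 and 3.31 CPM in any sample, and no listed marker was without a read in all samples. Nr4a3 itself had 29.4 to 33.1 CPM in isotype, 26.8 to 31.8 with anti-Lag3, 8.48 to 28.3 with anti-PD-L1 and 13.7 to 31.4 with CB. The part of these differences in the results below was not tested. In the sort each group was stained with its own colour of CD4 antibody, so the colour and the treatment cannot be told apart, and less RNA per cell cannot be told from fewer cells.

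The combination of both antibodies was compared with isotype to ask what blocking PD-L1 and Lag3 together does to these RNAs. Of the 10 hosts, 7 were higher in CB responder cells than in isotype responder cells (adjusted p under 0.05, edgeR quasi-likelihood test with Benjamini-Hochberg adjustment over all genes): Snhg15, Snhg12, Snhg5, Snhg1, Epb41l4aos, Snhg3 and Gas5. None was lower. The list was drawn up with earlier results of these data known, so its counts describe the members and are not independent support. Among all genes tested 4.29% were called in this comparison and 2.33% were called higher. At an unadjusted p under 0.05 there were 8 hosts, the 7 and Snhg6, against 14.9% of all genes. The median log2 fold change of the 10 hosts was 0.60, and that of all genes was 0, with the middle of all genes (25th to 75th percentile) between -0.41 and 0.37. The groups did not overlap for 7 hosts that were higher in CB, against 10.4% of all genes, and for 1 that was lower, Snhg6, against 9.62%.

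**Figure D1:**
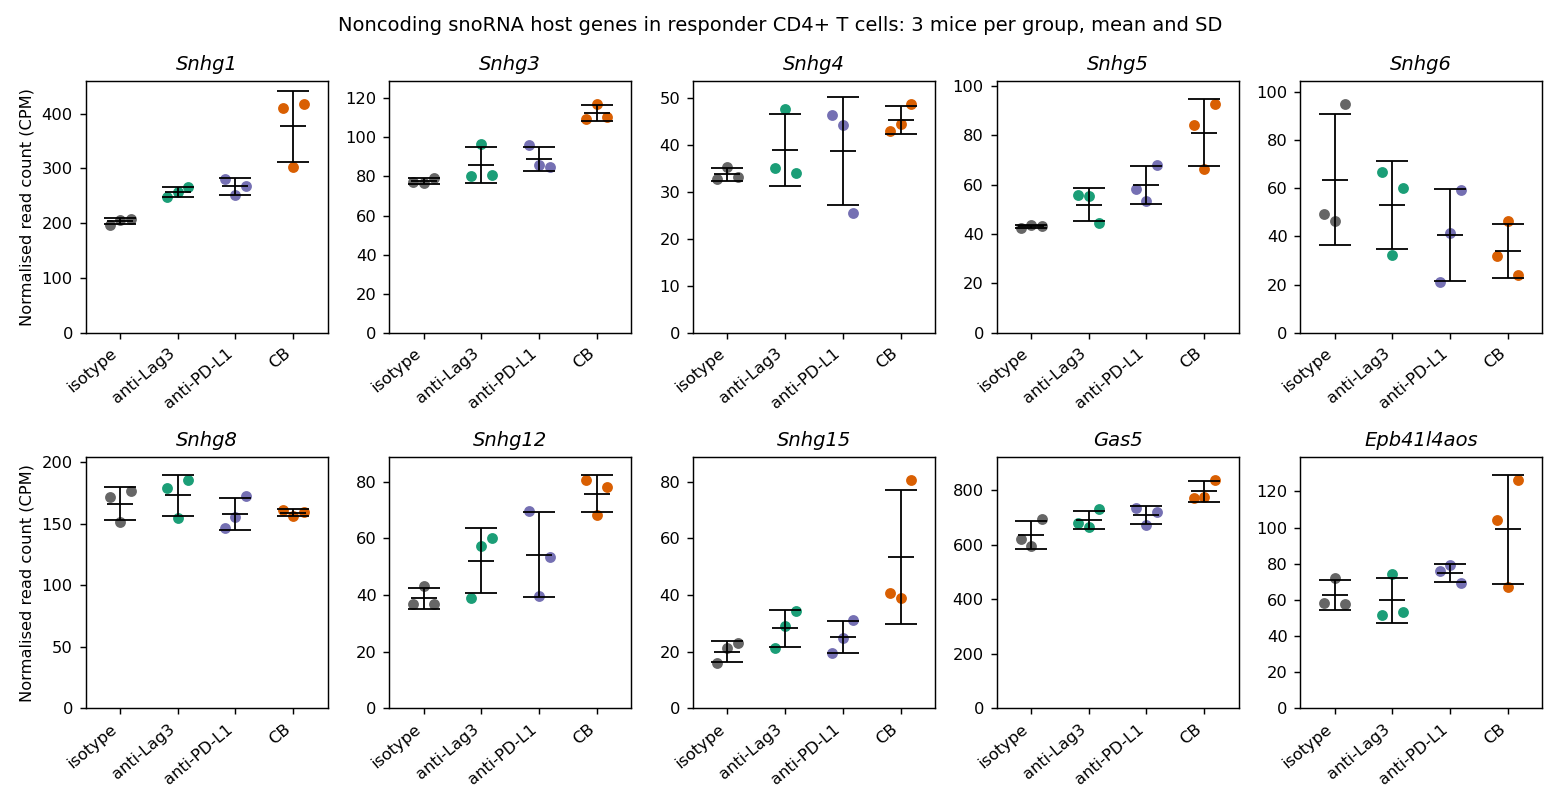
Normalised read count (CPM, linear axis from 0) of each of the 10 host genes by group. Coloured points are single mice, 3 per group, and black bars are the mean and SD. The 3 CB points lie above the 3 isotype points for Snhg1, Snhg3, Snhg4, Snhg5, Snhg12, Snhg15 and Gas5.

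Snhg15, the host of Snora9, had the largest fold change of the 10. It was read at 16.0, 21.2 and 23.1 CPM in the 3 isotype mice and at 40.7, 39.0 and 80.8 CPM in the 3 CB mice. CB replicate 3 stood well above the other two CB mice, and the lowest CB mouse was above the highest mouse of every other group. The fold was 2.66, a log2 fold change of 1.41 with a standard error (SE) of 0.27 and an adjusted p of 0.00203 by edgeR. Without CB replicate 3 the log2 fold change was 0.99, the lowest over the 12 fits that each leave out a mouse, and all 12 kept the call. The single antibodies gave 21.3, 29.2 and 34.4 CPM with anti-Lag3 and 19.7, 24.9 and 31.1 CPM with anti-PD-L1, ranges that overlapped that of isotype.

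Snhg12, the host of Snora16a, Snora44, Snora61 and Snord99, was read at 36.8, 43.1 and 36.7 CPM in isotype mice. In CB mice it was read at 80.7, 68.3 and 78.1 CPM, without overlap. The log2 fold change was 0.96 (SE 0.19) and the adjusted p 0.00297 by edgeR. Anti-Lag3 mice had 38.9, 57.3 and 60.2 CPM and anti-PD-L1 mice 69.7, 39.7 and 53.3 CPM. With either antibody alone the mice were thus spread from near the isotype level to, for anti-PD-L1 replicate 1, just above the lowest CB mouse.

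Snhg5 carries Snord50a and Snord50b, the U50 box C/D RNAs. Isotype mice were close to each other, at 42.7, 43.8 and 43.2 CPM, and CB mice had 84.2, 66.3 and 92.8 CPM. The log2 fold change was 0.91 (SE 0.16, adjusted p = 0.00115 by edgeR). Anti-Lag3 mice had 56.0, 55.6 and 44.3 CPM and anti-PD-L1 mice 58.4, 53.3 and 68.1 CPM. All 6 mice given a single antibody lay above all 3 isotype mice, and anti-PD-L1 replicate 3 lay above CB replicate 2.

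Snhg1, the U22 host gene with 8 box C/D loci, had the smallest adjusted p of the list. It was read at 197, 206 and 208 CPM in isotype mice, at 247, 258 and 266 CPM with anti-Lag3, at 281, 252 and 268 CPM with anti-PD-L1 and at 409, 302 and 418 CPM with CB. Every mouse given an antibody against Lag3 or PD-L1 was above every isotype mouse, and every CB mouse was above every other mouse. The CB to isotype fold was 1.85, a log2 fold change of 0.89 (SE 0.11, adjusted p = 1.66e-05 by edgeR), and this call was kept when any of the 12 mice was left out and under all 11 other settings. CB replicate 2 was the lowest of its group for this gene, and also for Snhg5, Snhg12, Snhg15 and Epb41l4aos.

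Epb41l4aos, a noncoding gene named for its place opposite Epb41l4a, had 58.2, 72.1 and 57.8 CPM in isotype mice and 104, 66.9 and 127 CPM in CB mice. CB replicate 2 was below isotype replicate 2, so these groups overlapped. The log2 fold change was 0.66 (SE 0.19, adjusted p = 0.0368 by edgeR). This call was lost without isotype replicate 1 (0.61), isotype replicate 3 (0.60), CB replicate 1 (0.63) or CB replicate 3 (0.45), with adjusted p from 0.00387 to 0.335 over the 12 fits that each leave out a mouse. Anti-Lag3 mice, at 51.8, 74.3 and 53.3 CPM, spanned the isotype range, and anti-PD-L1 mice had 76.1, 79.1 and 69.5 CPM.

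Snhg3 and Gas5 rose by less and with a small spread. Snhg3, whose introns give both Snora73 RNAs, had 77.2, 76.5 and 79.4 CPM in isotype mice and 109, 117 and 110.5 CPM in CB mice, a log2 fold change of 0.53 (SE 0.13, adjusted p = 0.0123 by edgeR). Gas5, with 9 loci typed as snoRNAs, Mir5117 among them, had 622, 596 and 694 CPM in isotype mice and 773, 776 and 839 CPM in CB mice. Its fold of 1.25 was the smallest of the 7 called hosts, a log2 fold change of 0.32 (SE 0.083, adjusted p = 0.0214 by edgeR). No CB mouse overlapped an isotype mouse for either gene. The Snhg3 call was lost without isotype replicate 1 (0.52) or isotype replicate 2 (0.52), with adjusted p from 0.0112 to 0.0542 over the 12 fits. The Gas5 call was lost without isotype replicate 1 (0.30), isotype replicate 2 (0.28) or CB replicate 3 (0.28), with adjusted p from 0.0157 to 0.141.

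Snhg4, Snhg6 and Snhg8 did not pass the test. Snhg4, the host of the box H/ACA RNA Snora74a, had 32.7, 35.3 and 33.2 CPM in isotype mice and 43.1, 44.4 and 48.8 CPM in CB mice, which did not overlap (log2 fold change 0.43, SE 0.21, adjusted p = 0.347 by edgeR). Anti-PD-L1 replicate 3, at 25.5 CPM, was the lowest of all 12 mice for this gene, and the other two anti-PD-L1 mice, at 46.3 and 44.3 CPM, were at the CB level. Snhg8, the host of Snora24, had 172, 151 and 177 CPM in isotype mice and 161, 156 and 159.6 CPM in CB mice. Its CB values lay inside the isotype range, and the log2 fold change was -0.07 (SE 0.11, adjusted p = 0.902 by edgeR).

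Snhg6, the host of Snord87, had the opposite sign from the called hosts. It was read at 49.3, 46.4 and 94.9 CPM in isotype mice and at 31.7, 46.3 and 24.0 CPM in CB mice, a log2 fold change of -0.90 (SE 0.31, adjusted p = 0.112 by edgeR). The groups were apart only by the small gap between isotype replicate 2 and CB replicate 2, and isotype replicate 3 was the highest mouse of all. Without that mouse the log2 fold change was -0.50, and over the 12 fits that each leave out a mouse it ran from -1.19 to -0.50. Its SD was 33.3% to 47.0% of its mean in each of the 4 groups, the widest relative spread of the list in every group but CB. Snhg6 was called without anti-PD-L1 replicate 1 (-0.90), in a fit of only these groups (-0.90) and with no filter on low counts (-0.90), with adjusted p from 0.000166 to 0.572 over 23 alternatives.

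**Figure D2:**
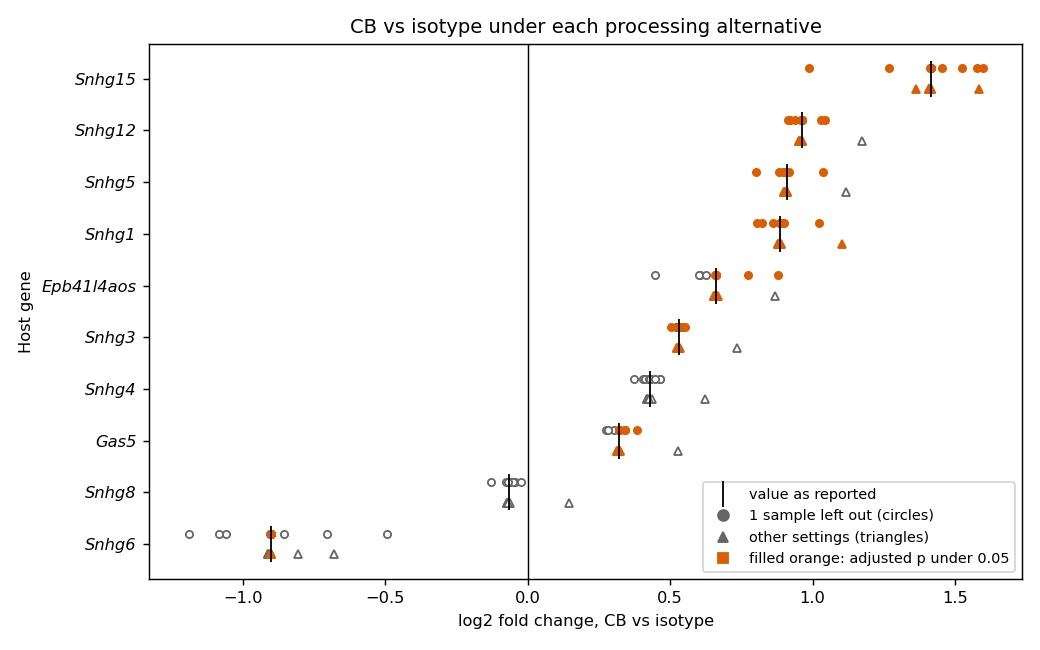
Log2 fold change of CB against isotype for each host gene (x axis) as reported (black line), in the 12 fits that each leave out a mouse (circles) and under 11 other settings (triangles), filled where the adjusted p is under 0.05. Snhg1 and Snhg15 are filled throughout, and the triangles farthest to the right for Snhg5 and Snhg12, at 1.12 and 1.17, are the fits scaled to spike-in counts.

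The 7 calls fell to 4 in the fit without isotype replicate 1, where calls over all genes fell from 649 to 405. They fell to 4 in tests against a log2 fold change of 0.2 in place of 0, where 364 genes were called by edgeR and 233 by DESeq2. Scaling each sample to its spike-in RNAs left 2 calls, Snhg1 and Snhg15, and 73 calls over all genes. The log2 fold changes of the 5 hosts that lost their call were larger on that scale, at 0.73 for Snhg3, 0.53 for Gas5, 0.87 for Epb41l4aos, 1.12 for Snhg5 and 1.17 for Snhg12.

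Each antibody alone was compared with isotype to ask what blocking a single pathway does. In the edgeR fit reported here no host was called with anti-PD-L1 (0.033% of all genes, 5 genes) or with anti-Lag3 (0%). At an unadjusted p under 0.05 edgeR had 4 hosts with anti-PD-L1 (7.84% of all genes), which were Snhg1, Snhg5 and Snhg12 above isotype and Snhg6 below it. With anti-Lag3 there were 2 at that level (5.21% of all genes), Snhg1 and Snhg12, both above isotype. DESeq2's Wald test against 0 called none of the 10 in either comparison. It called 56 of 13273 genes with anti-PD-L1 and 9 of 12997 with anti-Lag3. With no filter on low counts edgeR called 40 and 14 of 20672 genes in the same order. With the replicate number as a block it called 23 and 9 of 15138. No host was called in these fits. The median log2 fold change of the hosts was 0.23 for anti-PD-L1 and 0.17 for anti-Lag3, and the medians of all genes were 0. These comparisons and that of CB share the 3 isotype mice, so their values are given side by side and not set against each other.

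For Snhg1 the log2 fold change against isotype was 0.39 (SE 0.11) for anti-PD-L1 mice and 0.34 (SE 0.11) for anti-Lag3 mice, with adjusted p of 0.319 and 0.805 by edgeR. For Snhg5 it was 0.47 and 0.27, and for Snhg12 0.48 and 0.42, in the same order. Leaving out each mouse gave 0.26 to 0.66 for Snhg12 with anti-PD-L1 and 0.31 to 0.60 with anti-Lag3. Snhg1, Snhg3 and Snhg5 had all 3 mice of either single-antibody group above all 3 isotype mice, as 5.34% of all genes had for anti-PD-L1 and 5.25% for anti-Lag3. For Snhg3 the gap was small, with 76.5 to 79.4 CPM in isotype mice against 80.2, 96.7 and 80.8 CPM with anti-Lag3 and 95.9, 85.8 and 84.8 CPM with anti-PD-L1, and neither difference passed the test. Gas5 had 679, 665 and 730.3 CPM with anti-Lag3 and 736, 672 and 721 CPM with anti-PD-L1, overlapping isotype in both. Snhg8 had 179, 154 and 186 CPM and 147, 156 and 172 CPM in the same order, and Snhg6 66.8, 32.4 and 59.9 CPM and 21.02, 41.5 and 59.0 CPM. The Snhg6 values of both groups overlapped those of isotype.

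**Figure D3:**
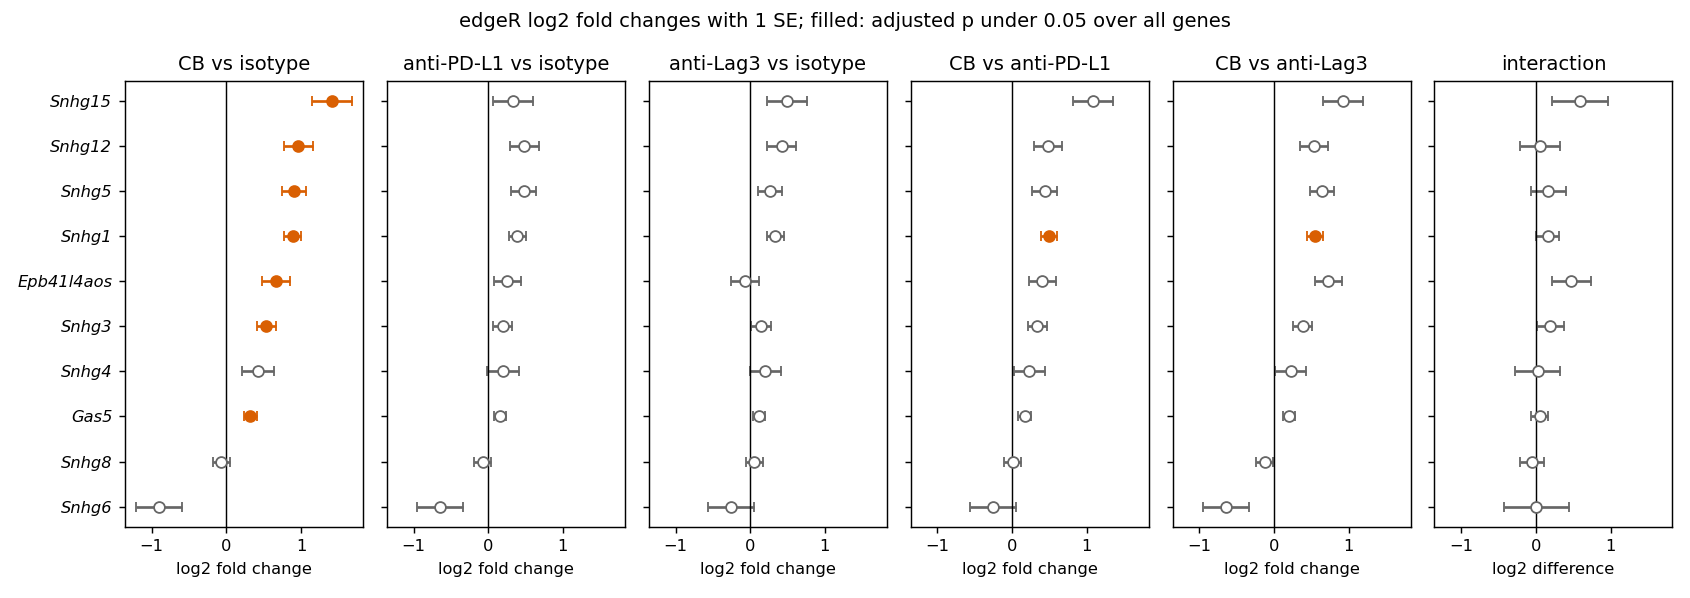
Log2 fold change with 1 SE (x axis) of each host gene (rows) in the 5 group comparisons and the interaction, from 1 edgeR fit. Filled orange marks an adjusted p under 0.05: 7 hosts in CB against isotype, and Snhg1 alone when CB was set against either single antibody.

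CB was then compared with each antibody alone, which asks what adding the other antibody does. Against anti-PD-L1 only Snhg1 was called (log2 fold change 0.50, SE 0.11, adjusted p = 0.0443 by edgeR), 1 of 10 hosts against 0.37% of all genes, or 0.205% called higher. Against anti-Lag3 again only Snhg1 was called (0.55, SE 0.11, adjusted p = 0.0115 by edgeR), 1 of 10 against 0.694% of all genes, or 0.39% called higher. At an unadjusted p under 0.05 there were 6 hosts against 9.08% of all genes in the first comparison, all higher in CB, and 8 against 9.46% in the second, of which 7 were higher in CB and Snhg6 was below anti-Lag3. The hosts' medians were 0.37 and 0.46, and those of all genes 0. CB mice did not overlap anti-PD-L1 mice for 4 hosts, all higher in CB (6.94% of all genes), which were Snhg1, Snhg3, Snhg15 and Gas5. They did not overlap anti-Lag3 mice for 6, all higher in CB (7.68% of all genes), those 4 with Snhg5 and Snhg12.

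These calls were less firm than that of Snhg1 against isotype. Against anti-PD-L1 the Snhg1 call was kept in 4 of the 12 fits that each leave out a mouse, with log2 fold changes of 0.41 to 0.63, and was lost without isotype replicate 2 (0.50), anti-Lag3 replicates 2 (0.49) or 3 (0.50), any of the anti-PD-L1 mice (0.53, 0.45 and 0.50), CB replicate 1 (0.43) or CB replicate 3 (0.41). Against anti-Lag3 it was kept in 8, with 0.47 to 0.69, and lost without anti-Lag3 replicate 1 (0.52) or 2 (0.55), CB replicate 1 (0.49) or CB replicate 3 (0.47). Snhg15 had the largest differences, 1.08 (SE 0.27, adjusted p = 0.0788 by edgeR) against anti-PD-L1 and 0.92 (SE 0.27, adjusted p = 0.119) against anti-Lag3, neither of which passed. Without CB replicate 3 they were 0.66 and 0.50, the lowest over the 12 fits that each leave out a mouse. The first passed in 3 of 23 alternatives, among them DESeq2 (1.08) and no filter on low counts (1.09), with adjusted p from 0.00177 to 0.658, and the second in 2 of 23, among them no filter (0.92), with adjusted p from 0.00929 to 1. The remaining one of each was a fit with the replicate number as a block (1.04 and 0.88), which also called Epb41l4aos and Snhg5 against anti-Lag3. Against anti-Lag3, Epb41l4aos (0.73, adjusted p = 0.0656 by edgeR) and Snhg5 (0.64, adjusted p = 0.0659) were just above the threshold. Epb41l4aos passed it in 5 of 23 alternatives, among them without anti-Lag3 replicate 2 (0.92) or CB replicate 2 (0.95), with DESeq2 (0.73) and with no filter (0.73). Snhg5 passed it in 4 of 23, among them without CB replicate 2 (0.77), with DESeq2 (0.64) and with no filter (0.64). Snhg6 and Snhg8 had differences of -0.64 (SE 0.31) and -0.12 (SE 0.11) from anti-Lag3, and -0.26 (SE 0.31) and 0.01 (SE 0.11) from anti-PD-L1.

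Whether CB differed from the sum of the single antibodies was tested as an interaction on the log2 scale (CB minus anti-PD-L1 minus anti-Lag3 plus isotype). No host was called in the edgeR fit reported here, as no gene was (0%), and none had an unadjusted p under 0.05 by edgeR (5.93% of all genes). DESeq2 called no host, and 5 of 14990 genes against 0 and 2 against 0.2. With no filter on low counts 10 genes were called and with the replicate block 4, and no host in either. The largest values were those of Snhg15 (0.59, SE 0.38, adjusted p = 0.948 by edgeR) and Epb41l4aos (0.47, SE 0.26, adjusted p = 0.904). Leaving out each mouse gave 0.16 to 0.77 for Snhg15 and 0.26 to 0.69 for Epb41l4aos, with the lowest value of both in the fit without CB replicate 3. The other eight hosts lay between -0.05 and 0.19. The SEs, from 0.12 for Gas5 to 0.44 for Snhg6, set what this design could show.

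In the order of the group means, CB was highest for 8 of the 10 hosts, all but Snhg6 and Snhg8. Isotype was lowest for 7 of those 8, and anti-Lag3 for Epb41l4aos. The measure of spread used in this paragraph is the sum of the SDs of the groups compared. For Epb41l4aos the means of anti-Lag3 (59.8 ± 12.6 CPM, SD, n = 3) and isotype (62.7 ± 8.17) differed by less than that sum. So did those of isotype and the next lowest group for Snhg3, Snhg4, Snhg12, Snhg15 and Gas5. For Snhg1 the means were 203 ± 5.69 CPM in isotype, 257 ± 9.37 in anti-Lag3, 267 ± 14.9 in anti-PD-L1 and 376 ± 64.3 in CB, in which only the neighbours anti-Lag3 and anti-PD-L1 lay within their spread of each other. For Gas5 they were 637 ± 50.7, 691 ± 34.4, 709 ± 33.4 and 796 ± 37.4 CPM in the same order, and for Snhg3 77.7 ± 1.53, 85.9 ± 9.36, 88.8 ± 6.13 and 112 ± 4.18 CPM. The single-antibody means were within their spread of each other for all 10 hosts. For Snhg6 the order ran the other way, from 63.5 ± 27.2 CPM in isotype to 34.0 ± 11.3 in CB, with every neighbour within the spread.

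**Figure D4:**
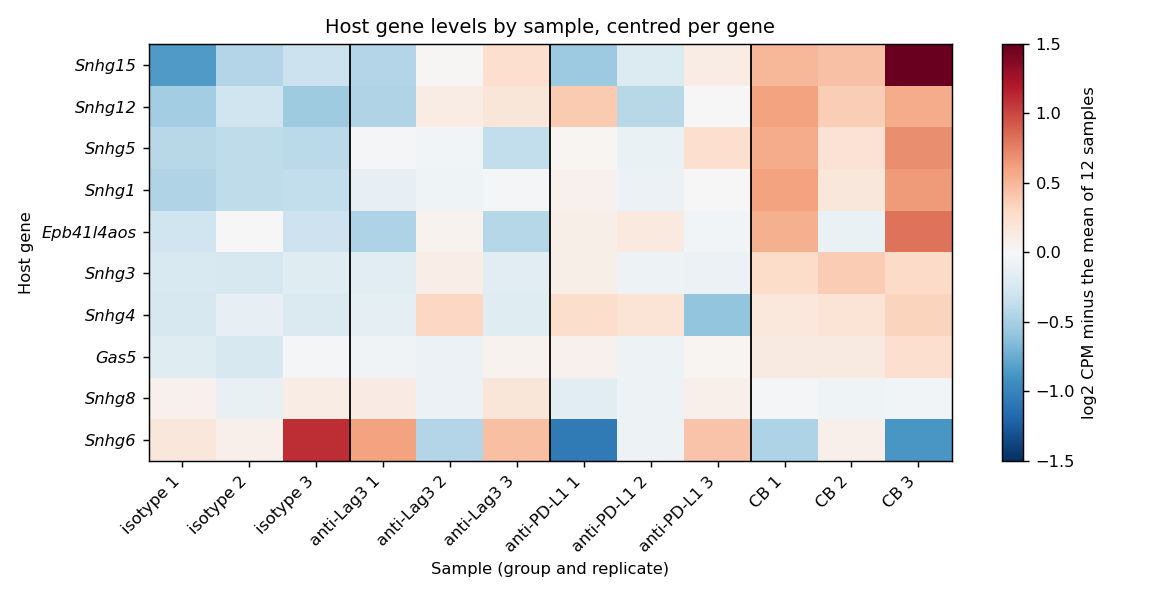
Log2 CPM of each host gene (rows) in each of the 12 mice (columns, by group), less the gene's mean over all mice (colour scale from -1.5 to 1.5). CB 1 and CB 3 are above the mean for all hosts but Snhg6 and Snhg8, CB 3 reaches 1.48 for Snhg15, and Snhg6, at the bottom, is below the mean in CB 1 (-0.47) and CB 3 (-0.87) and highest in isotype 3 (1.11).

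Averaged over the 10 hosts, the centred log2 CPM was -0.29, -0.21 and -0.11 in the isotype mice, -0.11, -0.012 and -0.0031 with anti-Lag3, -0.08, -0.08 and 0.02 with anti-PD-L1 and 0.29, 0.18 and 0.42 with CB. Among themselves, over the 12 mice, Snhg1 and Snhg5 had the most alike profiles (root mean square difference of centred log2 CPM 0.13), and Snhg3 and Gas5 followed at 0.13. Snhg6 was the farthest host from 8 of the other nine, at 0.66 to 0.99, and its nearest was Snhg8 at 0.53. Of 8621 other genes with a mean of at least 100 reads, the 5 nearest the hosts' mean profile were Hmgn1 (0.07), Mars (0.08), Chd1 (0.08), Hif1a (0.09) and Knop1 (0.09), and their CB to isotype log2 fold changes ran from 0.41 to 0.60. This likeness is a description over 12 mice of which 3 make each group.

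The libraries were primed on poly(A). Of the 31 loci 28 had a row in the count table as annotated models, and 27 of these had no read in any sample. Snora73b had 9902 reads, and Snora73a, printed above beside it, had none although it differs at 7 of 205 positions. Snora73b had 21.1 to 36.2 CPM in isotype mice, 33.0 to 49.7 with anti-Lag3, 40.7 to 54.1 with anti-PD-L1 and 45.5 to 61.5 with CB. CB did not overlap isotype, and the log2 fold change was 0.78 (SE 0.21, adjusted p = 0.0338 by edgeR). Its values with anti-PD-L1 (0.68, adjusted p = 0.358) and anti-Lag3 (0.45, adjusted p = 0.805) did not pass. Only uniquely mapped reads entered the counts, so a read that matched both copies equally well is in neither count. How reads on a snoRNA were told from reads on its host's intron is not given in the sources used here, so the Snora73b count is uncertain.

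Some hosts lie against other genes. Rcc1, a chromatin-bound exchange factor for Ran, overlaps Snhg3 on the same strand with its start 81 bases away, and it was higher in CB (log2 fold change 0.46, SE 0.10, adjusted p = 0.00725 by edgeR). Reads on the part they share cannot be assigned to one of them from the count table, so the Snhg3 and Rcc1 values are uncertain to that extent. Slc3a2, the heavy chain of amino acid transporters, starts 106 bases from Snhg1 on the other strand and had 0.54 (SE 0.18, adjusted p = 0.0873). Zbtb37 overlaps Gas5 on the opposite strand with 2070 reads against 165180, at -0.66 (SE 0.43, adjusted p = 0.474). Gm28285 overlaps Snhg4 with 9 reads, and Mcmdc2, opposite Snhg6, and Gm17300, opposite Snhg3, had none. The strand setting of the counting is not given in the sources used here, so antisense reads on these hosts cannot be told apart.

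Genes with roles near those of the hosts were counted in the same fit for CB against isotype, in which 4.29% of all genes were called and 2.33% were called higher. A list of other noncoding hosts was drawn up by name and not checked against the snoRNA annotation. Of its 9 genes with enough reads, 1 was higher and none lower. This was the Snord12 host Zfas1 (log2 fold change 0.66, SE 0.12, adjusted p = 0.00115 by edgeR), with 156 to 196 CPM in isotype and 247 to 326 CPM in CB mice. The median of these 9 was 0.66, and Snhg9 (0.59, adjusted p = 0.0847) and Snhg17 (1.24, adjusted p = 0.0838) did not pass. Nor did Dancr (0.75), Snhg20 (0.58) and Mir17hg (0.75), which is a microRNA host by its name. Snhg16, which had the opposite sign (-0.54, SE 0.64), Snhg10 (2.21, SE 1.89, from 217 reads) and Snhg14 (-0.0027, SE 2.84, from 63 reads) did not pass either. Of the 195 protein-coding snoRNA hosts tested, 18 were higher and 4 lower (11.3% called), with a median of 0.05. Rcc1, whose reads cannot all be told from those of Snhg3, is among the 18. Those with the smallest p were the box C/D core protein gene Nop58 (0.81), Wdr43 (1.01) and Dkc1 (0.82), whose product is the pseudouridine synthase of box H/ACA particles. Of 78 genes listed as cytosolic ribosomal proteins, 1 was higher, the Rpl7-like gene Rpl7l1 (0.65), and none lower (1.28% called), with a median of 0.05.

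For CB against isotype these counts too stand against 4.29% of all genes called and 2.33% called higher. Among the particle proteins, 2 of 4 box C/D genes were higher, Nop58 and Nop56 (0.50), and Fbl, the methyltransferase (0.24), and Snu13 (0.40) did not pass. Of the box H/ACA genes 2 of 4 were higher, Dkc1 and Nhp2 (0.63), and Gar1 (0.26) and Nop10 (0.04) did not pass. Of 12 assembly factors and chaperones, 4 were higher: Nolc1 (1.13, adjusted p = 1.95e-06 by edgeR), Naf1 (1.14), Znhit6 (0.77) and Tcof1 (0.47). Of 10 nonsense-mediated decay factors, 1 was higher, Upf3b (0.47), and the median was 0.08. Of 5 regulators that bind TOP mRNAs or their translation machinery, 3 were higher: Larp1 (0.50), Cnbp (0.45) and Larp4 (0.70). Tia1 of the same list had the opposite sign and was just above the threshold (-0.61, SE 0.18, adjusted p = 0.0532 by edgeR), and Tial1 (0.10) did not pass. No gene of these 5 lists was called lower, and Nop56, Nop58 and Dkc1 are also among the protein-coding hosts. With a single antibody no gene of any of these lists was called. Of all genes, 0.205% were called higher in CB than with anti-PD-L1 and 0.39% than with anti-Lag3. Of the 5 lists in this paragraph, CB was higher than anti-PD-L1 for Nop58, Dkc1 and Nolc1, and higher than anti-Lag3 for these and Nop56. Of the 195 protein-coding hosts, 5 (2.56%) were higher in CB than with anti-PD-L1 and 9 (4.62%) than with anti-Lag3, Wdr43 (0.76 and 0.86) among both.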

How the data were processed

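RNA of sorted responder CD4+ T cells from 12 mice was sequenced by QuantSeq 3′ mRNA-seq, which reads the 3′ end of poly(A) RNA without molecular identifiers, so levels were not compared between genes. The authors trimmed with Cutadapt 1.18, aligned to GRCm38 with STAR 2.6.1a, counted uniquely mapped reads with FeatureCounts 1.6.4 and deposited raw read counts per Ensembl gene. The annotation release and strand setting are not given in the sources used here. The authors also deposited a log2 table (DESeq2's regularised log), used to check the direction of the differences.

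Ensembl identifiers were named by GENCODE M21 (52073 of 56691), and Snhg4 was matched by coordinates (at least 80% reciprocal overlap with RefSeq). Genes with at least 30 reads over the 12 samples were fitted in R 4.3.3 with edgeR 4.0.16 (quasi-likelihood test, TMM scaling, 4 group means, no covariates), and p-values were adjusted by Benjamini-Hochberg over 15138 genes, with a threshold of 0.05. The p-values set each difference against the spread between mice within groups, estimated over all 4 groups with information shared between genes. They make no allowance for sort batches. Alternatives included DESeq2 1.42.0, other scalings and filters, a test against 0.2, and leaving out each mouse. All 10 members are named, and of other lists the called genes with the 3 smallest p and, where few were called, the others. The members and lists were chosen with earlier results of these data known. Reads on genes were 16449370 to 22151025 per sample. No pair of samples within a group was a duplicate, and pairs from different groups were not put through that check.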

Additional observations from a re-analysis of the deposited data

How the results depend on the processing

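The 10 hosts were refitted under 11 other settings and without each mouse in turn. Scaling to spike-in counts moved the median of all genes by 0.19 for CB against isotype, 0.16 for anti-Lag3 against isotype and 0.20 for CB against anti-PD-L1, and the hosts' medians became 0.80, 0.37 and 0.56. With it the number of hosts called was 2 for CB against isotype, 0 for CB against anti-PD-L1 and 0 for CB against anti-Lag3. Over all genes it called 73, 0 and 1 in the same order. Tests against a log2 fold change of 0.2 called 4, 0 and 0 hosts in the same order, with edgeR and with DESeq2. Over all genes they called 364, 3 and 39 with edgeR and 233, 18 and 41 with DESeq2. DESeq2 against 0 called 2 hosts for CB against anti-PD-L1 and 3 for CB against anti-Lag3, with 178 and 280 genes in all. No filter on low counts gave 2 and 4 hosts, with 150 and 252 genes in all. The fit reported here called 56 and 105 genes. For CB against anti-PD-L1, DESeq2 size factors gave 0 hosts and 46 genes in all, and a fit of only the groups compared gave 0 hosts and 21 genes. The cause of these changes was not tested.

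Leaving out each mouse gave 4 to 8 calls for CB against isotype, 0 to 1 for CB against anti-PD-L1 and 0 to 3 for CB against anti-Lag3, with medians of 0.50 to 0.69, 0.26 to 0.43 and 0.35 to 0.52. Over all genes these fits called 394 to 705, 4 to 57 and 42 to 125 in the same order. Some differences that had not passed the test changed sign. For anti-Lag3 against isotype the ranges were -0.46 to 0.14 (Snhg6), -0.0091 to 0.13 (Snhg8) and -0.26 to 0.044 (Epb41l4aos), and for CB against anti-PD-L1 -0.57 to 0.12 (Snhg6) and -0.043 to 0.073 (Snhg8). For the interaction they were -0.20 to 0.20 (Snhg4), -0.40 to 0.38 (Snhg6), -0.12 to 0.017 (Snhg8), -0.12 to 0.28 (Snhg12) and -0.013 to 0.095 (Gas5). Spike-in scaling reversed Snhg8 in CB against isotype (0.14), Epb41l4aos in anti-Lag3 against isotype (0.13), Snhg6 in CB against anti-PD-L1 (0.023) and the interactions of Snhg4 (-0.024) and Snhg8 (0.019). DESeq2 size factors and the DESeq2 tests reversed Snhg8 in CB against anti-PD-L1 (-0.00094 and -0.0011) and the Snhg6 interaction (-0.0014 and -0.00050).

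Over all genes, 649 were called for CB against isotype. The count was higher in some settings, among them no filter (818), the replicate block (843) and DESeq2 against 0 (918). It was 73 with spike-in scaling, and 364 and 233 in the edgeR and DESeq2 tests against 0.2. Without isotype replicate 1, CB replicate 1 or CB replicate 3 it was 405, 421 and 394. For CB against anti-PD-L1 there were 56, against 150 with no filter, 178 with DESeq2, 4 without CB replicate 3 and 0 with spike-in scaling. For CB against anti-Lag3 there were 105, against 252 with no filter and 280 with DESeq2. That count fell to 1 with spike-in scaling, and to 39 and 41 in the edgeR and DESeq2 tests against 0.2. It was 44 and 42 without CB replicate 1 or 3, and 70, 51 and 45 without anti-Lag3 replicate 1, 2 or 3. The cells were sorted in batches of 4 mice, 1 from each group, and the labels do not say whether the replicate numbers mark these batches. The numbers were not taken as a pairing, since deviations of same-numbered samples correlated weakly. Of such pairs 2 of 18 exceeded 0.1, against 0 of 36 pairs of other numbers, whose highest value was 0.0741. Of the 12 samples 10 were closest to one of their own number. The paper states that principal component 2 of its expression data was largely due to the sort batches. Whether the numbers mark the batches is undecided, and the fit reported here makes no allowance for batches. With the replicate block 2 hosts were called for CB against anti-PD-L1 (Snhg1, 0.49, and Snhg15, 1.04) and 4 for CB against anti-Lag3 (Snhg1, 0.54, Snhg5, 0.63, Snhg15, 0.88, and Epb41l4aos, 0.74), and 137 and 208 genes in all.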
